A study of Mus musculus with 6 samples.

Results

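A set of 5 genes of xenobiotic and steroid metabolism were followed in naive CD4 T cells that lacked or carried Ly-6C, a lipid-anchored surface protein of the Ly6 family: the aldo-keto reductase genes Akr1c12, Akr1c13 and Akr1c18, the epoxide hydrolase gene Ephx1 and the glutathione transferase gene Gsta4. The members were chosen by their names and by the difference between the sorted populations in these same arrays, so that difference describes them here and tests nothing about them. Each was represented by the probe set that carries its symbol alone, and all 5 were found among the 19938 genes of the table, each with 1 probe set. The arrays measured 3 Ly-6C-negative and 3 Ly-6C-positive samples, called biological replicates by the labels. Both came from 6 weeks old mice of the strain C57BL/6 Foxp3-GFP, whose fluorescent reporter marks cells with the regulatory T cell factor Foxp3. Peripheral lymph nodes were the source, and the gate shared by both populations was CD4+, CD8-, TCRβ+, CD44lo, CD25- and Foxp3-. The labels do not say which or how many mice gave each sample, so p-values measure the spread between these samples only. Transcripts of Ly6c1 and Ly6c2, which share 2 probe sets, followed the sort at 7.88 to 8.69 on the Ly-6C-negative and 10.76 to 11.71 on the Ly-6C-positive arrays. All differences are Ly-6C-negative minus Ly-6C-positive on the log2 scale.

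Aldo-keto reductases are cytosolic enzymes that reduce aldehydes and ketones with NAD(P)H, and the AKR1C branch acts on hydroxysteroids, prostaglandins and carbonyl compounds from lipids and drugs. Microsomal epoxide hydrolase, the product of Ephx1, opens reactive epoxides with water, and glutathione transferases join electrophiles to glutathione. These are textbook enzymes of drug and lipid-peroxide clearance, best studied in liver, and genes of all 3 classes are known targets of the oxidant-sensing factor Nrf2. Akr1c18 encodes the mouse enzyme that inactivates progesterone to its 20-alpha-hydroxy form, a function best known from the ovary.

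The Akr1c genes lie side by side on chromosome 13. The promoter windows of Akr1c12 and Akr1c13 are shown because both genes were lower in Ly-6C-negative cells. These 2 windows are also near copies of each other. Windows run from 250 bases before to 50 after a gene's start and come from RefSeq on GRCm38.p6. They were found for 4 of the 5 members (not Gsta4). The Akr1c12 window is chr13:4279350-4279649 on the minus strand and the Akr1c13 window chr13:4190937-4191236 on the plus strand. Capitals in this pair mark bases that differ or have no partner within the stretch where the windows overlap, and the overhanging ends are in lower case. The Akr1c18 window, chr13:4150597-4150896 on the minus strand, is shown as the neighbour whose groups overlapped, and the Ephx1 window, chr1:181017520-181017819 on the minus strand, as that of the member with the opposite direction. Capitals in these 2 mark the GC box, GGGCGG, on either strand.
Akr1c12: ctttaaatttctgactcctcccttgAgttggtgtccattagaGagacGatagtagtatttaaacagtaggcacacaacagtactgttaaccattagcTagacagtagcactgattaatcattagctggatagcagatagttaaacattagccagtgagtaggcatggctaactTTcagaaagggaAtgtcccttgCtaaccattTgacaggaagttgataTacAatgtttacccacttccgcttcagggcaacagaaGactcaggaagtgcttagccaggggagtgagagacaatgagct
Akr1c13: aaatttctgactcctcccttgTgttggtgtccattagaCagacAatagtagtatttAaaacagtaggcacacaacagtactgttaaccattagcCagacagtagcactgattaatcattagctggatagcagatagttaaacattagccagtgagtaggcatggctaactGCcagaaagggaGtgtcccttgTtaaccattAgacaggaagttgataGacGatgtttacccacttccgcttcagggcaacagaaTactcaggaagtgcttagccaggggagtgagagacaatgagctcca
Akr1c18: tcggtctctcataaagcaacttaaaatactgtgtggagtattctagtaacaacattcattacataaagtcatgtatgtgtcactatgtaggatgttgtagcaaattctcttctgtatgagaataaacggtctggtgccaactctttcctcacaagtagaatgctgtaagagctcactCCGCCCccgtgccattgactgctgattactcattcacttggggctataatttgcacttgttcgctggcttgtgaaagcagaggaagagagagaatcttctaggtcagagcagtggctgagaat
Ephx1: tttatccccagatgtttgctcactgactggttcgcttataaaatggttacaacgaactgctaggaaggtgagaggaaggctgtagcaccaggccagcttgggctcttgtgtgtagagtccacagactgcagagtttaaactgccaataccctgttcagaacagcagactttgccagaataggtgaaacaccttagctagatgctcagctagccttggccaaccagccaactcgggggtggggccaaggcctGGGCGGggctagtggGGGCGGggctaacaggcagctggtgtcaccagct

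Over the stretch where they overlap, which leaves out the few bases at the ends that lie in 1 window alone, the Akr1c12 and Akr1c13 windows were identical at 284 of 297 aligned positions, or 95.6%, with 12 substitutions and 1 gap. The other 20 pairs among the 7 Akr1c windows reached 51.3% to 62.4%, and Akr1c windows against that of Ephx1, an unrelated gene, 51.0% to 56.6%, over aligned stretches of different length that cover only a part of some windows, so unrelated windows also reach values of this size. The ETS core GGAAGT, a motif looked for after the sequences had been seen, occurred 3 times in the Akr1c12 window and 3 times in the Akr1c13 window, counting both strands, and not in the Akr1c18 or Ephx1 window. Of all 32851 windows, 23.8% hold it at least 1 time, and how many hold it 3 times was not counted. The matches of Akr1c12 and Akr1c13 lie at corresponding places of these near copies, so they are not separate observations. The GC box occurred 2 times in the Ephx1 window, starting 1 and 16 bases after the start, and 1 time in the Akr1c18 window, against 35.7% of all windows with a match. On either strand, the antioxidant response core TGACNNNGC, the dioxin response core GCGTG and the STAT palindrome TTCNNNGAA matched none of the 4 windows, while 12.4%, 32.4% and 8.3% of all windows hold them. TATAAA matched the Ephx1 window only, at position -214 relative to the start, and 13.6% of all windows hold it. A match is a description of letters, and a missing match says only that these letters are not in this stretch.

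Transcripts of Akr1c12 and Akr1c13 were lower in Ly-6C-negative cells, with measured differences of about the same size. On the Ly-6C-negative arrays Akr1c12 lay below the array medians, 6.25 to 6.29, so its difference may be compressed. The sizes for the 2 genes thus need not be comparable. Akr1c12 measured 5.85, 6.14 and 5.98 in Ly-6C-negative replicates 1, 2 and 3, against 6.55, 6.55 and 6.56 in Ly-6C-positive replicates 1, 2 and 3. The Ly-6C-positive arrays lay within a few hundredths of each other and above every Ly-6C-negative array. The means were 5.99 ± 0.147 in Ly-6C-negative and 6.55 ± 0.00764 in Ly-6C-positive cells (SD, n = 3 each), a difference of -0.56 with a standard error (SE) of 0.0815, or 1.48-fold lower. Akr1c13 measured 7.91, 7.76 and 7.71 in Ly-6C-negative replicates 1, 2 and 3, against 8.29, 8.47 and 8.42 in Ly-6C-positive replicates 1, 2 and 3. These groups did not overlap either, and the gap between them was 0.381. Akr1c13 averaged 7.79 ± 0.102 in Ly-6C-negative and 8.39 ± 0.0952 in Ly-6C-positive cells (SD, n = 3 each), a difference of -0.60 with a standard error of 0.0797, or 1.52-fold lower.

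Both genes encode AKR1C enzymes, and their probe sets may share signal. This could not be checked, because only the promoter windows were compared, and not the transcripts or probes. The arrays did not order the genes alike: among Ly-6C-negative arrays, replicate 1 was lowest for Akr1c12 and highest for Akr1c13. In bulk samples such as these, fewer cells with a transcript and less transcript per cell cannot be told apart.

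Akr1c18 was dim and did not separate the populations. It measured 4.50, 4.53 and 4.57 in Ly-6C-negative replicates 1, 2 and 3, against 4.46, 4.40 and 4.51 in Ly-6C-positive replicates 1, 2 and 3. The highest Ly-6C-positive array lay above the lowest Ly-6C-negative array, so the groups overlapped. The difference was 0.08 with a standard error of 0.065 and a 95% interval from -0.0707 to 0.221 (limma adjusted p = 0.902). Of all genes, 87.3% had a higher mean signal than Akr1c18, and differences of dim probe sets are compressed after RMA, so a change of a transcript near background may not be detectable here.

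**Figure D1:**
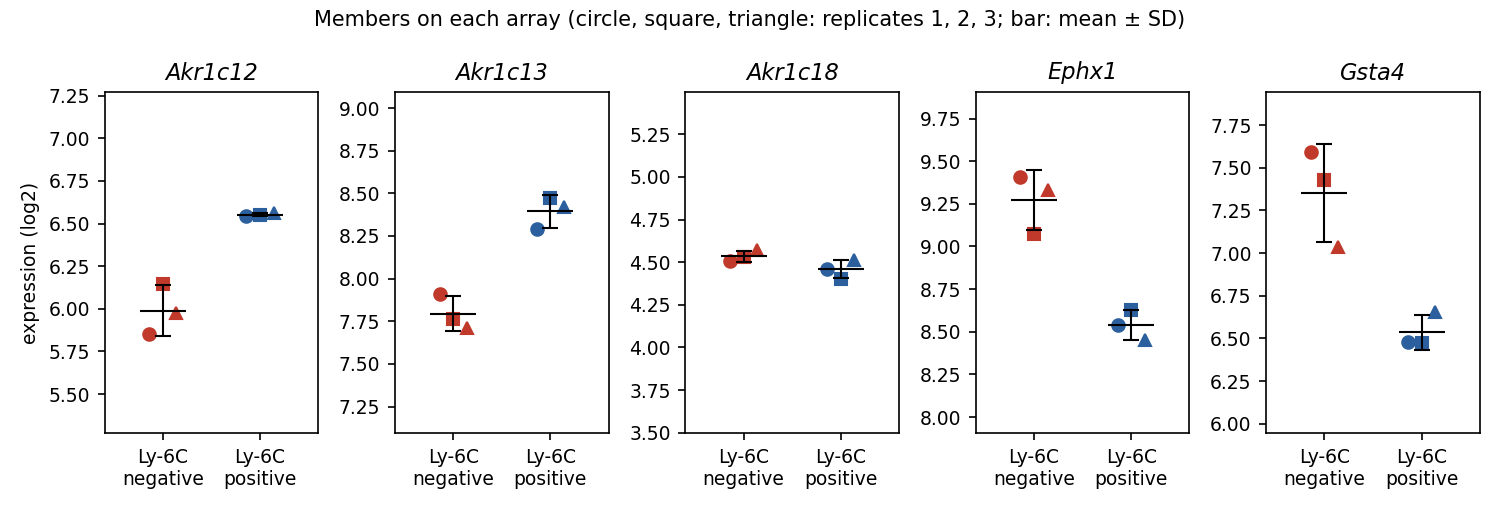
Expression (log2) of the 5 members on each array, with Ly-6C-negative (red) left of Ly-6C-positive (blue); circles, squares and triangles are replicates 1, 2 and 3, and bars the mean ± SD. Each panel spans the same range of 2 log2 units. Akr1c12 and Akr1c13 are lower and Ephx1 and Gsta4 higher in all Ly-6C-negative arrays, while the groups overlap for Akr1c18.

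Ephx1 transcripts were higher in Ly-6C-negative cells. Ephx1 measured 9.41, 9.07 and 9.33 in Ly-6C-negative replicates 1, 2 and 3, against 8.54, 8.63 and 8.45 in Ly-6C-positive replicates 1, 2 and 3. Replicate 2 was the lowest Ly-6C-negative and the highest Ly-6C-positive array, and a gap of 0.446 remained between the groups. The means were 9.27 ± 0.175 in Ly-6C-negative and 8.54 ± 0.0871 in Ly-6C-positive cells (SD, n = 3 each), a difference of 0.73 with a standard error of 0.0949, or 1.66-fold higher.

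Gsta4, whose enzyme is known for conjugating the lipid-peroxidation aldehyde 4-hydroxynonenal, had the largest difference of the 5 members and the widest spread. It measured 7.59, 7.43 and 7.04 in Ly-6C-negative replicates 1, 2 and 3, against 6.48, 6.47 and 6.66 in Ly-6C-positive replicates 1, 2 and 3. All Ly-6C-negative arrays lay above all Ly-6C-positive arrays, with replicate 3 the lowest of the Ly-6C-negative and the highest of the Ly-6C-positive ones. The means were 7.35 ± 0.286 in Ly-6C-negative and 6.54 ± 0.105 in Ly-6C-positive cells (SD, n = 3 each), a difference of 0.82 with a standard error of 0.129, or 1.76-fold higher.

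Across all genes, limma called 29 of 19938, or 0.145%, at an adjusted p of 0.05, of which 20 had the higher and 9 the lower value in Ly-6C-negative cells. Of the members, 3 were among them: Akr1c13 and Akr1c12 lower, with limma adjusted p of 0.0263 and 0.0392, and Ephx1 higher at 0.0263. Gsta4 was at limma adjusted p = 0.0634. The groups did not overlap in 4 of the 5 members and in 12.6% of all genes. These counts follow from how the members were chosen and support nothing. When the fit took the replicate number as a block it called 41 genes, or 0.206%, of which 28 were higher and 13 lower, and Gsta4 passed at adjusted p = 0.0384. The same-numbered differences of Gsta4 were 1.12, 0.96 and 0.38 for replicates 1, 2 and 3. Those of Ephx1 were 0.87, 0.45 and 0.88, of Akr1c12 -0.69, -0.41 and -0.58, and of Akr1c13 -0.38, -0.71 and -0.71. Akr1c12 and Ephx1 thus had their smallest differences in replicate 2, Akr1c13 in replicate 1 and Gsta4 in replicate 3.

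The 3 calls were lost when certain single arrays were left out, which also leaves a smaller group. Without Ly-6C-positive replicate 1, 2 or 3 the difference of Akr1c12 was -0.565, -0.563 and -0.558, against -0.562 with all arrays. Without Ly-6C-negative replicate 1, or without Ly-6C-positive replicate 1, 2 or 3, none of the 5 members passed limma's adjusted p of 0.05. The count over all genes was then 5, 8, 6 and 8. Without Ly-6C-negative replicate 3, Gsta4 alone passed, at adjusted p = 0.00532 with a difference of 0.98. Without Ly-6C-negative replicate 2, Akr1c12, Akr1c13 and Ephx1 passed at 0.00807, 0.0376 and 0.00304, among 47 genes called. Over all alternatives run the difference stayed between -0.638 and -0.492 for Akr1c12, between -0.658 and -0.56 for Akr1c13, between 0.662 and 0.83 for Ephx1 and between 0.698 and 0.976 for Gsta4.

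**Figure D2:**
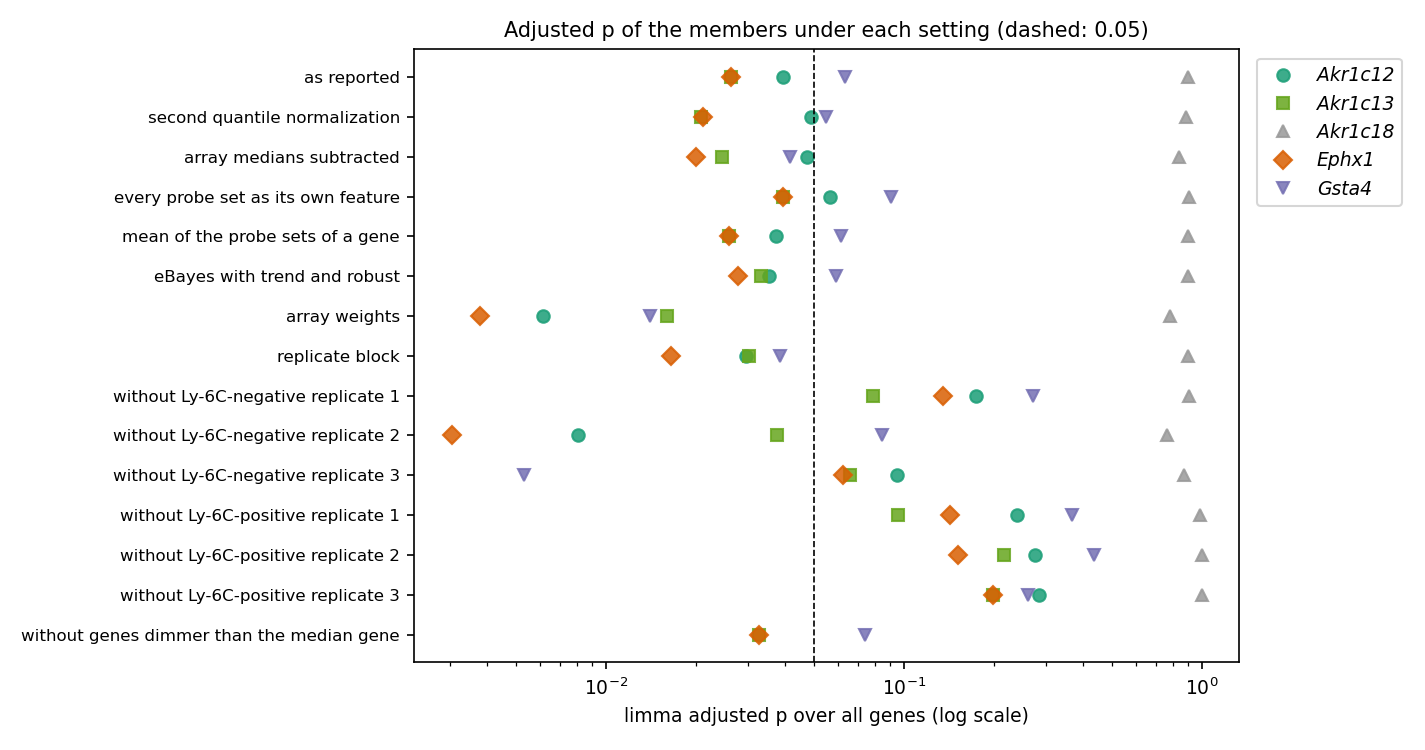
Adjusted p (limma, over all genes, log axis) of each member as reported and under each alternative that changes the fit; the dashed line is 0.05, and Akr1c12 and Akr1c18 have no point where dim genes were left out. The lowest value is 0.00304, for Ephx1 without Ly-6C-negative replicate 2, and Akr1c18 stays at 0.765 or above.

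The difference in the Akr1c cluster was seen at 2 of its 8 measured genes. In order along chromosome 13 these are Akr1c14, Akr1c18, Akr1c13, Akr1c19, Akr1c12, Akr1c6, Akr1c20 and Akr1c21, so that Akr1c19 lies between the lower pair. Akr1c19 measured 3.948 in Ly-6C-negative and 3.997 in Ly-6C-positive cells, with a difference of -0.05 and a standard error of 0.116. The 5 genes other than the members had group means of 3.95 to 4.68, in the dim range where differences are compressed, and differences of -0.0493 to 0.0845. None passed limma's test, with adjusted p of 0.888 or above. The 3 measured genes before the cluster were Net1 at 0.15, Tubal3 at -0.12 and Ucn3 at -0.01. Those after it were Akr1e1 at -0.09, the zinc finger factor gene Klf6 at -0.09 and the mitochondrial protease gene Pitrm1 at 0.01. The brighter of these neighbours, with Klf6 at 10.15 in Ly-6C-negative and 10.24 in Ly-6C-positive cells and Pitrm1 at 8.36 and 8.35 in the same order, did not pass either.

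**Figure D3:**
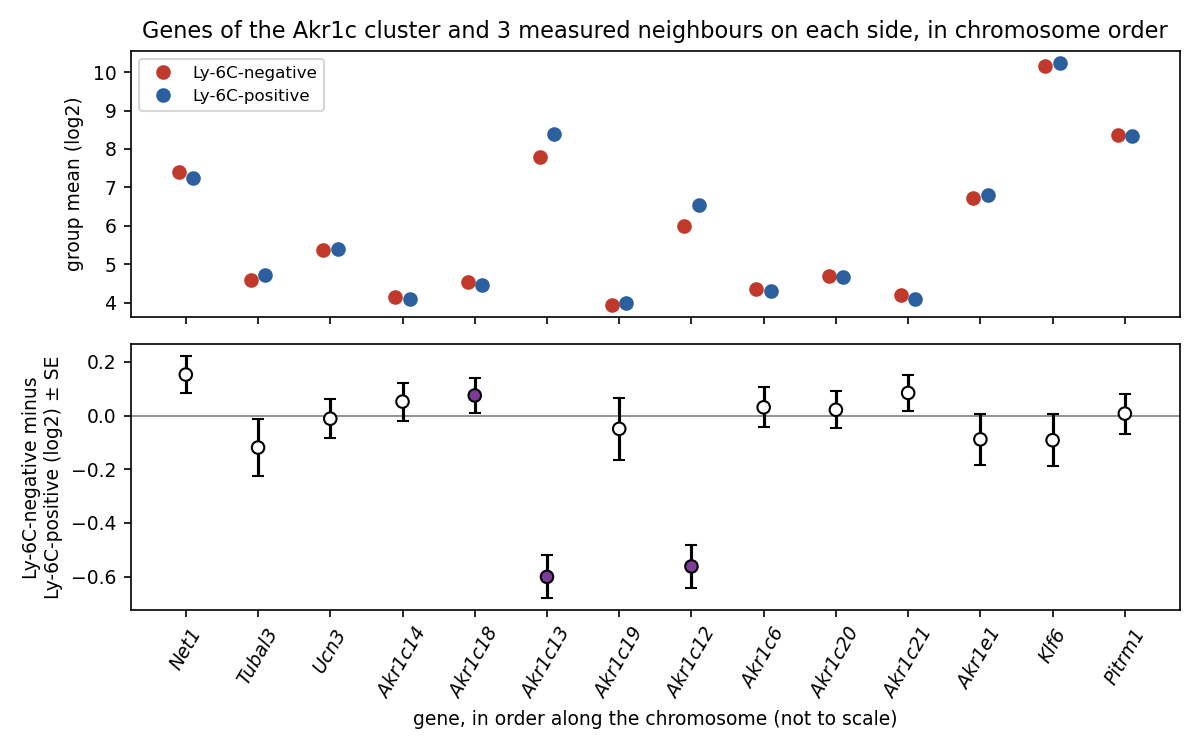
Top, group means (log2) of the Akr1c genes and 3 measured neighbours on each side in chromosome order, Ly-6C-negative in red and Ly-6C-positive in blue; levels of different probe sets are not comparable with each other. Bottom, the difference ± SE for the same genes, with the members filled: Akr1c13 at -0.60 and Akr1c12 at -0.56 stand below the others, which lie between -0.12 and 0.15. The members were chosen partly by this difference.

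The measured neighbours of the higher members did not pass the test. Predicted genes and genes without a probe set of their own were left out, so other genes may lie between. Nearest to Ephx1 on chromosome 1 among those kept were Tmem63a, an ion channel gene, at -0.05 (SE 0.0814), and Nvl, a gene of ribosome assembly, at -0.01 (SE 0.0988). Nearest to Gsta4 on chromosome 9 were the kinase gene Cilk1 at 0.15 (SE 0.0861) and Omt2a at -0.10 (SE 0.0712). Omt2a was dim, at 2.91 in Ly-6C-negative and 3.01 in Ly-6C-positive cells. The limma adjusted p of these 4 genes lay at 0.838 or above.

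Relatives of the members within each enzyme class did not pass the test. Of 15 other aldo-keto reductase and related genes, limma called 0, 0 had an unadjusted p under 0.05, and their differences ran from -0.142 to 0.128. Among them was Akr1a1, the general aldehyde reductase, at -0.03, and Kcnab2, a potassium channel subunit of the same fold, at 0.13. Of 22 glutathione transferase genes other than Gsta4, limma called 0 and 3 had an unadjusted p under 0.05. These 3 were Gsta3 at 0.20, Gsto1 at 0.19 and Gstm2 at -0.20, each with groups that did not overlap and limma adjusted p of 0.614, 0.615 and 0.644. Gstp1, the pi-class transferase, measured 10.80 in Ly-6C-negative and 10.89 in Ly-6C-positive cells, a difference of -0.09. Gsta1 and Gsta2 share their probe sets with predicted genes, and the differences of these probe sets lay between -0.115 and -0.0688. Of 4 other epoxide hydrolase genes limma called 0 and 1 had an unadjusted p under 0.05, Lta4h, which makes leukotriene B4, at 0.25 (SE 0.0788, limma adjusted p = 0.537). Ephx2, the soluble epoxide hydrolase gene, differed by 0.05 and was dim, at 4.02 in Ly-6C-negative and 3.96 in Ly-6C-positive cells. The median difference was 0.0218 over the other aldo-keto reductase genes, -0.00578 over the other transferases and 0.0802 over the other hydrolases, against -0.00476 over all genes.

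Genes of the Nrf2 and antioxidant pathway did not pass the test. Limma called 0 of 38 measured, 1 had an unadjusted p under 0.05, and the median was 0.0161. That gene was Mafg, a small Maf partner of Nrf2, at 0.22 (SE 0.0757, limma adjusted p = 0.619). Gclc, the catalytic subunit of glutathione synthesis, differed by 0.15 and Ugdh, which makes the sugar donor for glucuronidation, by 0.17, both with groups that did not overlap. Nfe2l2, the Nrf2 gene itself, measured 9.71 in Ly-6C-negative and 9.82 in Ly-6C-positive cells, and its repressor Keap1 7.58 and 7.40 in the same order. The common target genes Nqo1, Hmox1 and Gclm differed by -0.10, -0.01 and -0.01. Nqo1, at 4.37 in Ly-6C-negative and 4.47 in Ly-6C-positive cells, was dim, so a change of it may not be detectable here. Hmox1, at 5.89 and 5.90 in the same order, also lay below the array medians.

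Of 23 aryl hydrocarbon receptor and cytochrome P450 genes limma called 0 and 4 had an unadjusted p under 0.05. Cyp51, a sterol demethylase gene, differed by 0.43 (SE 0.0862, limma adjusted p = 0.19), Cyp2s1 by -0.39 (SE 0.102, limma adjusted p = 0.427), the cytochrome b5 reductase gene Cyb5r3 by 0.16 and the cytochrome b5 gene Cyb5a by -0.22. Outside these 4, Ahr, the receptor, differed by 0.16, and its classical targets Cyp1a1 and Cyp1b1 by -0.03 and 0.08. Both targets were dim, Cyp1a1 at 4.87 in Ly-6C-negative and 4.90 in Ly-6C-positive cells and Cyp1b1 at 5.11 and 5.03. The list's median was -0.00937.

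In the list of steroid enzymes and receptors, limma called 0 of the 33 genes other than Akr1c18 and 4 had an unadjusted p under 0.05. Hsd11b1, which regenerates active glucocorticoid, measured 9.63 in Ly-6C-negative and 9.90 in Ly-6C-positive cells, a difference of -0.27 (SE 0.0791, limma adjusted p = 0.496). Hsd17b2 differed by -0.28, the glucocorticoid receptor gene Nr3c1 by 0.22 and Hsd17b11 by -0.20. The progesterone receptor gene Pgr differed by 0.10 and was dim, at 5.19 in Ly-6C-negative and 5.09 in Ly-6C-positive cells. The median over these 33 genes was -0.00689.

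Other branches of carbonyl and drug metabolism held no call either. Of 34 aldehyde dehydrogenase and carbonyl reductase genes, limma called 0 and 1 had an unadjusted p under 0.05, the retinal reductase gene Dhrs3 at 0.39 (SE 0.076, limma adjusted p = 0.173). Aldh3a1 differed by -0.17 and Dhrs7 by -0.25. Of 20 prostaglandin genes other than Akr1c18, limma called 0 and 2 had an unadjusted p under 0.05, the prostaglandin E2 receptor genes Ptger2 at 0.27 and Ptger4 at 0.21, with limma adjusted p of 0.537 and 0.641. Ptger3 and Ptger1, for the other receptors of this ligand, differed by 0.18 and -0.02. Of 20 genes of glucuronosyl- and sulfotransferases and drug transporters, limma called 0 and 0 had an unadjusted p under 0.05, with the transporter gene Abcg2 at -0.17, Ugt8a at 0.20 and Abcc2 at -0.13. The medians of these 3 lists were -0.0176, -0.0221 and -0.0185.

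**Figure D4:**
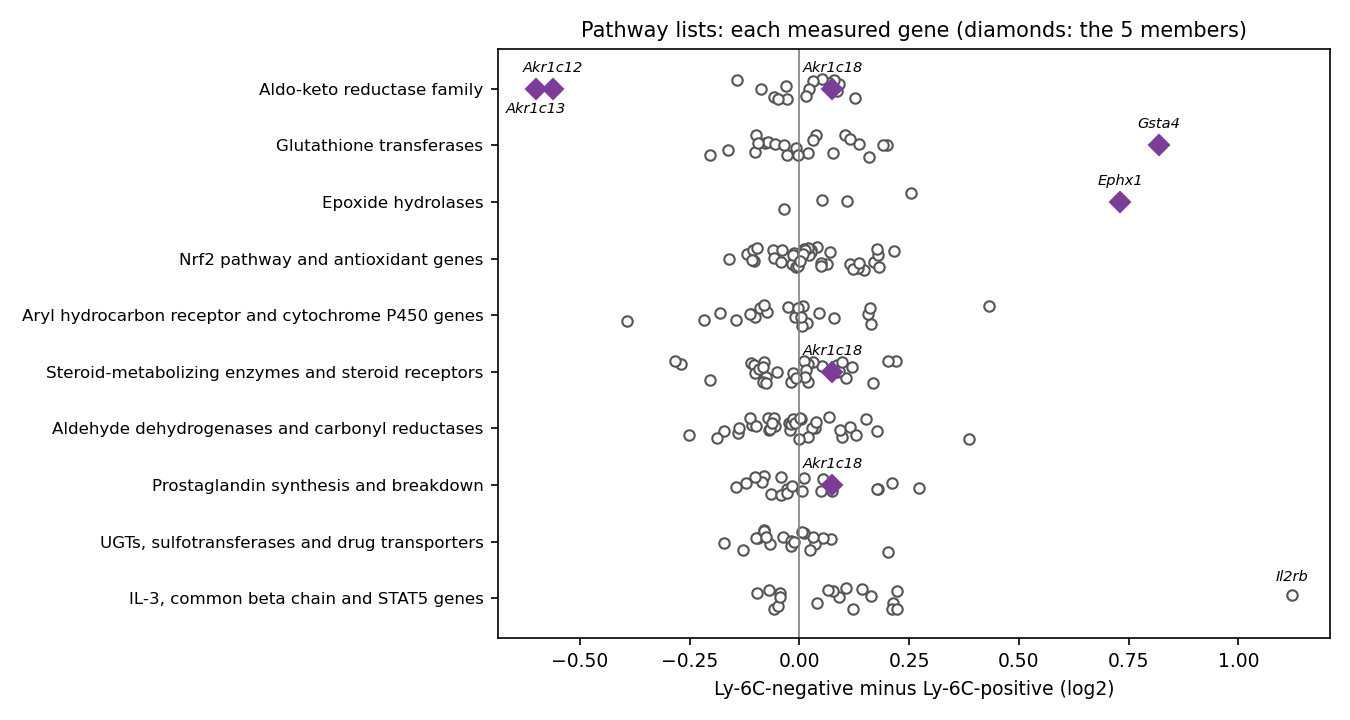
Difference (Ly-6C-negative minus Ly-6C-positive, log2) of each measured gene of the pathway lists, 1 row a list, with vertical scatter for legibility only; diamonds are the members and open circles the other genes. The members at -0.60, -0.56, 0.73 and 0.82 lie outside the range of the other genes of their enzyme class. Akr1c18, at 0.08, lies inside that of its class. Members were chosen partly by this difference, so their place relative to these ranges tests nothing. Without the replicate block Gsta4, at 0.82, did not pass the adjusted p threshold, and of the open circles only Il2rb at 1.12 did. With the block Gsta4 passed, at limma adjusted p = 0.0384.

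The IL-3 and STAT5 list was included because aldo-keto reductases of this branch have been described as responding to IL-3 in mouse blood cells. Of 19 measured members, limma called 1, Il2rb, the beta chain of the IL-2 and IL-15 receptors, higher by 1.12 (limma adjusted p = 0.00086), and 5 in all had an unadjusted p under 0.05. Stat5b, Bcl2 and the STAT5 target gene Cish differed by 0.21, 0.21 and 0.22 and did not pass. The IL-3 receptor chain genes Il3ra and Csf2rb differed by 0.08 and -0.10, and the list's median was 0.0892.

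Markers of the gate and of other cells were read beside these values. Cd3e measured 11.76 in Ly-6C-negative and 11.78 in Ly-6C-positive cells and Cd4 10.50 and 10.59 in the same order, so both populations carried the defining T cell transcripts. Limma called 0 of the 11 measured genes of the T cell and gate list and 1 had an unadjusted p under 0.05, Cd44, whose low surface level was part of the gate, at -0.25 with groups that did not overlap (limma adjusted p = 0.427). Of 17 regulatory T cell markers, 5 were higher by limma, as Ephx1 was (Izumo1r, Ctla4, Ikzf2, Gpr83 and Tnfrsf9), 0 were lower and 12 did not pass. Of the 17, 15 lay above 0 and 2 below, Itgae at -0.09 and Tnfrsf18 at -0.01. Their mean level was 6.749 to 6.826 in Ly-6C-negative arrays and 6.41 to 6.427 in Ly-6C-positive arrays, and with the block Nt5e made 6. Foxp3 itself, the defining marker, measured 6.67 in Ly-6C-negative and 6.66 in Ly-6C-positive cells. Of 18 measured NK and innate lymphoid markers, 2 were lower, as Akr1c12 and Akr1c13 were: Klrd1 at -1.50 and Gzma at -0.69. With the block Prf1 made 3, at -0.70. The list was mixed, with 8 genes above and 10 below 0 and a median of -0.00993, and Eomes at 0.27 and Kit at 0.16 lay higher with groups that did not overlap. The mean level of this list was 5.53 to 5.575 in Ly-6C-negative arrays and 5.691 to 5.698 in Ly-6C-positive arrays. The NK-defining genes Ncr1 and Klrb1c differed by -0.05 and 0.01. Both were dim, Ncr1 at 4.35 in Ly-6C-negative and 4.40 in Ly-6C-positive cells and Klrb1c at 3.843 and 3.835. A change of either may thus not be detectable here. Of 12 thymocyte and recent emigrant markers, Dntt was lower at -1.37 and Cldn10 higher at 0.66, and with the block Cd24a was higher at 0.999. Klrd1 was also the 1 gene called, lower, among 11 CD8 T cell markers, of which 4 had an unadjusted p under 0.05: Klrd1, Crtam at -0.29, Ccl5 at 0.59 and Eomes. Limma called 0 of 13 B cell, 17 monocyte, macrophage and neutrophil, 12 mast cell and basophil, 12 dendritic cell, 16 stromal and endothelial and 6 erythrocyte and platelet markers, with 1, 4, 1, 0, 0 and 0 at an unadjusted p under 0.05. The part of these markers in the members' differences was not tested.

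The genes whose values over the 6 arrays were most like each member were found by Pearson's r, as a description: a shared group difference alone makes r high, and 1012 or 1013 genes with an SD of at least 0.2 over the arrays were compared. Closest to Ephx1 were Lrmp, a lymphoid membrane protein gene, with r of 0.9976, Swap70, a Rac-linked adaptor gene, with 0.9888 and Cd5, a brake on T cell receptor signals, with 0.9878. Closest to Gsta4 were the ubiquitin ligase gene Nedd4 with 0.9887, the cytokine gene Il21 with 0.9884 and Cd101 with 0.9868. Closest to Akr1c12 were the dynein light chain gene Tctex1d2 with 0.9871, Adam6b with 0.9821 and Klrd1, the NK receptor chain CD94, with 0.9796. Closest to Akr1c13 were Tspan31 with 0.9739, the granzyme gene Gzma with 0.9415 and the T cell adaptor gene Sit1 with 0.9401. Closest to Akr1c18 were the phosphatase gene Ssh1 with 0.9910, the ecto-nucleotidase gene Nt5e with 0.9615 and Ahi1 with 0.9490. Akr1c18 was dim and ran only from 4.40 to 4.57 over the 6 arrays, with groups that overlapped. Its r values are the highest of 1013 genes and may reflect noise near background. The lists of Akr1c12 and Akr1c13 had no gene in common among these 3 each.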

How the data were processed

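Expression was measured on 6 Affymetrix mouse arrays. The submitters' processing notes name RMA and Partek without version or role, and the deposited values are log2 expression of 28853 probe sets. RMA equalises the arrays' distributions, so a change shared by all genes cannot be seen. Array medians lay between 6.25 and 6.29. Per the labels' protocols, RNA was amplified and its cDNA labelled with biotin. For the chip description's version and the genome build, the sources used here give nothing.

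Probe sets with 1 symbol in the platform annotation (21789) were kept. Of these, 21698 were matched by Entrez ID and took the RefSeq symbol, whether or not it differed. The brightest per gene gave 19938 genes. The test was limma 3.58.1 under R 4.3.3 (lmFit, then eBayes, 2-sided) without covariate or filter, Benjamini-Hochberg adjusted over all genes. Simulated data with 200 changed genes among 19938 gave back 66% of changes of 0.5 and 95.6% of changes of 1. The share of false calls there was 4.22%. The arrays themselves gave 29 calls, so these recovery rates need not hold for them. Members and lists were chosen with earlier results of these data known. Named genes are the members, list genes past the threshold or with the smallest p, chromosomal neighbours, and the 3 likest genes per member. Neighbours, common pathway genes given at a smaller difference and the defining markers were named after their values were seen. Neighbour order and promoter windows come from RefSeq, aligned with Biopython 1.88.

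Replicate numbers are shared by both groups. Taken as deviations from group means, arrays of the same number had an r across genes of 0.129, 0.128 and 0.107. All lay above the bound of 0.1 for reading the numbers as pairs, which the labels do not state. The fit without a block, from which the main values come, leaves such a pairing out. The replicate block was an alternative, as were a second quantile normalization, median subtraction, leaving out dim genes, other probe-set handling, trend and robust settings, array weights, an adjusted p of 0.1 and leaving out each array.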

Additional observations from a re-analysis of the deposited data

How the results depend on the processing

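All alternatives were planned. The count of genes called, 29 as reported, was 45 with every probe set as its own feature and 54 with array weights, and ran from 5 to 47 when 1 array was left out. The number of members called, 3 as reported, ran from 0 to 3 when 1 array was left out. With the replicate number as a block 41 genes and 4 members were called. The block changed the call of Gsta4 (limma adjusted p = 0.0384 with it, 0.0634 without) and of no other member. Gsta4 also passed with array medians subtracted (0.0415) and with array weights (0.0141), and Akr1c12 missed the threshold with every probe set as its own feature (0.0563). Leaving out an array leaves 2 against 3, and the cause of the other changes was not tested. None of the 5 members changed direction under an alternative in which it was tested. Il2rb was the 1 gene of the pathway lists other than the members that passed, under each alternative run. With 3 arrays a group, signal near background limits what can be said of Akr1c18 and the other dim Akr1c genes.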
